A study of Mus musculus with 39 samples.

Results

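A panel of 10 genes that mark or maintain mouse spermatogonial stem cells was followed through 24 testis libraries, out of 21561 Ensembl genes held by both deposited tables. The genes were taken by symbol: Gfra1, Ret, Id4, Nanos2, Nanos3, Etv5, Zbtb16, Lin28a, Sall4 and Eomes, each matching 1 Ensembl identifier. Bulk RNA-seq was made from testes of male mice on a C57BL/6J background. They were wild-type (WT), homozygous for a cetacean (minke whale) INSL3 coding sequence placed at the mouse locus (KI), or INSL3 knockout (KO). WT and KI testes were collected at postnatal days 8, 23 and 40 (P8, P23, P40) and KO testes at P8 and P23, giving 8 groups of 3 biological replicates each. KI mice carried no neomycin cassette in the study's description, and the design of the KO allele is not given in the sources used here. Each library is whole testis, so no value below belongs to a sorted stem cell.

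Spermatogonial stem cells are the undifferentiated germ cells from which sperm production is renewed. Sertoli cells secrete GDNF, which binds the co-receptor GFRA1 and signals through the receptor tyrosine kinase RET; the transcription factor ETV5 lies downstream of growth factor signals. ID4, ZBTB16 (PLZF), SALL4 and EOMES are transcriptional regulators found in these cells, while NANOS2, NANOS3 and LIN28A bind RNA.

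The RefSeq promoter windows (GRCm38.p6, 300 bases across a start site, printed on the gene's strand) are shown for 3 members whose levels took different courses. Under the main library scaling, Gfra1 was on the lower side of WT in mutant testes and Lin28a on the higher side from P23. Some of these directions changed under other scalings, given below. Nanos2 was near the detection limit in adult-stage wild-type testis. Capitals mark GGGCGG or its reverse complement CCGCCC, the GC box.
Gfra1 (chr19:58455349-58455648, minus strand): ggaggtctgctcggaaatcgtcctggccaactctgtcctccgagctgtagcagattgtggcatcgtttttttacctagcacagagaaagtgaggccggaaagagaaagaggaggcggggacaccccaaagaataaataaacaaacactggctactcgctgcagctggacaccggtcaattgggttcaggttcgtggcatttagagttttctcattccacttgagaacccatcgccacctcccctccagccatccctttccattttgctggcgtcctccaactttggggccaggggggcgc
Lin28a (chr4:134018767-134019066, minus strand): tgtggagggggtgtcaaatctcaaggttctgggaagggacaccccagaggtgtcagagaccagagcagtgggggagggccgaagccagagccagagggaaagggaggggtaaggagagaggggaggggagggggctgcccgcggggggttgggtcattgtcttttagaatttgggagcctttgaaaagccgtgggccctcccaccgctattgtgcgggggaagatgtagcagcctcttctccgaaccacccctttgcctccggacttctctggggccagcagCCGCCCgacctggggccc
Nanos2 (chr7:18987274-18987573, plus strand): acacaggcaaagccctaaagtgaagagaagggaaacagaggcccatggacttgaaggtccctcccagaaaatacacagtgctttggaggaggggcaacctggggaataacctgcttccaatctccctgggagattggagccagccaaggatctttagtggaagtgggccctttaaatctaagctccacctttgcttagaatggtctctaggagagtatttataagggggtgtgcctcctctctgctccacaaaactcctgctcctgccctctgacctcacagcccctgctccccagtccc
The GC box was present once in the Lin28a window and in neither of the others; over 32851 windows of the same length, 35.7% held it on either strand. TATAAA (reverse TTTATA) was found once in the Nanos2 window and not in the Gfra1 or Lin28a window, against 13.6% of all windows. CCGGAA (reverse TTCCGG), a core of ETS factor motifs, was found once in the Gfra1 window and in 14.9% of all windows. CACGTG, the E-box, was in none of the 3 windows and in 7.15% of all windows. Windows were matched for 7 of the 10 members. These matches describe letters in a window only.

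Library totals lay between 33000204 and 42629270 counts. Levels are CPM, counts relative to library size, after TMM scaling over the 24 testis libraries. A gene was called when edgeR's quasi-likelihood test gave a Benjamini-Hochberg adjusted p under 0.01 over all genes tested and the change was at least 2-fold; log2 fold changes carry their standard error (SE), and n = 3 per group throughout. The deposit was split: 15 testis libraries (WT and KI without WT P23) stood in 1 table, and 9 (KO and WT P23) in another. For P8 KO against WT, P23 KI against WT, KI against KO, and WT P23 against other WT ages, table and group cannot be told apart. The gene models differed too: the length implied by counts and FPKM was 3963 bases for Id4 in the table of 15 libraries but 1751 bases in that of 9, and 4891 against 6405 bases for Ret, so values of these genes across tables are given with that limit.

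Insl3, the altered gene, was checked first. KI testes held 15 to 33 counts at P8, 52 to 84 at P23 and 443 to 511 at P40, at most 2.31% of the WT level of the same age. KO testes at P23 held 0 to 5 counts against 20844 to 25238 in WT. The P8 libraries labelled KO, however, held 613 to 906 Insl3 counts, which is 20.7% to 27.4% of WT. This goes against the label, so these 3 are called the P8 libraries labelled KO. Some libraries stood apart within their group. KI P23 replicate 3 had 79.9 summed CPM of 7 elongating spermatid genes where the other KI P23 libraries reached up to 877, and KI P8 replicate 2 had 1792 summed CPM of 9 spermatocyte genes where the lowest KI P8 library had 431. KI P40 replicate 1 had 2610 summed CPM of the spermatocyte genes where the other KI P40 libraries had 468 and 407.

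In WT testis the panel was high at P8 and mostly low afterwards. Sall4, a zinc finger factor of undifferentiated spermatogonia, measured 76.2, 51.5 and 45 CPM in the P8 replicates and 5.77, 6.07 and 7.88 CPM at P40. The ages did not overlap, and the difference P40 minus P8 was -3.17 ± 0.24 (log2, SE; adjusted p = 7.91e-06, edgeR quasi-likelihood, Benjamini-Hochberg). Ret measured 59.8, 55.7 and 47.4 CPM at P8 and 1.75, 1.73 and 3.72 CPM at P40, a difference of -4.52 ± 0.31. Zbtb16 (-3.09), Lin28a (-2.99), Nanos3 (-4.14), Nanos2 (-3.99) and Gfra1 (-1.30, all log2) also fell. 7 members were thus called lower and 1 higher between P8 and P40, beside 27.8% and 31.9% of all genes called lower and higher. The call of Nanos2 ended without WT P8 replicate 1 (-3.82) or 2 (-3.80) or WT P40 replicate 1 (-3.50) or 2 (-3.45), and that of Nanos3 without WT P40 replicate 3 (-4.12).
Id4, an inhibitor of DNA binding proteins, was the member that rose, from 16.5, 21.4 and 25.2 CPM at P8 to 64.9, 66.5 and 70.8 CPM at P40, by 1.63 ± 0.16 (log2; adjusted p = 3.41e-05, edgeR quasi-likelihood). Etv5 differed by -0.59 ± 0.11 (adjusted p = 0.00119, edgeR quasi-likelihood), less than 2-fold. Eomes, at 0.524 to 0.98 CPM at P8, gave -1.24 ± 0.57 (adjusted p = 0.0746, edgeR quasi-likelihood). The median difference over the 10 members was -3.04, against -0.03 over all genes. In the same comparison all 9 spermatocyte genes, all 8 round spermatid genes and all 7 elongating spermatid genes were called higher, and 10 of 16 Sertoli genes were called lower; in bulk tissue, fewer cells of a type and less RNA per cell cannot be told apart. With libraries scaled on the Sertoli list, which moved the median of all genes to 1.88, Gfra1 was at 0.61 and Etv5 at 1.32, above 0 but below that median, and 4 members were called lower and 2 higher, beside 5.01% and 63.4% of all genes.

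Between WT P8 and P23, which lie in different tables, 6 members were called lower and Id4 higher (1.51 ± 0.15), beside 29% and 32.8% of all genes. The 6 were Ret (-5.89), Zbtb16 (-3.72), Sall4 (-3.54), Nanos2 (-3.31), Lin28a (-2.90) and Nanos3 (-2.62), while Gfra1 (-0.74), Etv5 (-0.53) and Eomes (-0.09) were not called. Between WT P23 and P40 no member was called, beside 1.64% of genes called lower and 3% called higher. Gfra1 passed the p but not the fold limit, with -0.52 ± 0.12 (adjusted p = 0.00517, edgeR quasi-likelihood). Nanos2 was not tested, and the other members lay between -1.46 (Nanos3) and 1.41 (Ret). 4 members had an unadjusted p under 0.05, as had 51.3% of all genes, and DESeq2 called 0 members, beside 1.52% of genes lower and 2.59% higher.

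The labelled tissue was checked against the gubernaculum, the ligament that guides testis descent, in WT at P8. CPM values in this paragraph were TMM-scaled over the WT P8 testis and gubernaculum libraries together, apart from the scaling used above. Sall4 was at 0.0666, 0.514 and 0 CPM in the gubernaculum replicates and Lin28a at 0.6, 1.09 and 0.747 CPM, far under their testis levels. 6 members were called higher in testis, beside 14.3% of all genes: Sall4 (8.15 ± 0.66), Lin28a (5.85 ± 0.37), Nanos2 (4.49 ± 1.04), Nanos3 (3.28 ± 0.58), Ret (2.47 ± 0.20) and Zbtb16 (2.33 ± 0.44). Gfra1 (0.81 ± 0.17) and Id4 (0.79 ± 0.18) were under 2-fold, and Etv5 (-0.20 ± 0.14) and Eomes (2.34 ± 1.21) did not pass the test. The call of Nanos2 ended without gubernaculum replicate 1 (3.96) or 3 (3.97) or any 1 testis library (4.33 to 4.81), that of Nanos3 without gubernaculum replicate 3 (3.31) or testis replicate 2 (3.10), and that of Zbtb16 without gubernaculum replicate 2 (2.44); Eomes, whose 14 gubernaculum counts all lay in that replicate, was called higher in that fit. Ret measured 10, 12 and 7.1 CPM and Zbtb16 3.76, 10.8 and 13.7 CPM in the gubernaculum replicates. Gfra1, Id4, Etv5, Ret and Zbtb16 were thus also detected outside the testis. Per length, the mean levels in WT P8 testis were 17.7 FPKM for Etv5, 15.1 for Lin28a, 13 for Sall4, 12.5 for Ret, 11.3 for Zbtb16, 7.83 for Gfra1, 5.96 for Id4, 5.38 for Nanos3, 0.569 for Nanos2 and 0.253 for Eomes.

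**Figure D1:**
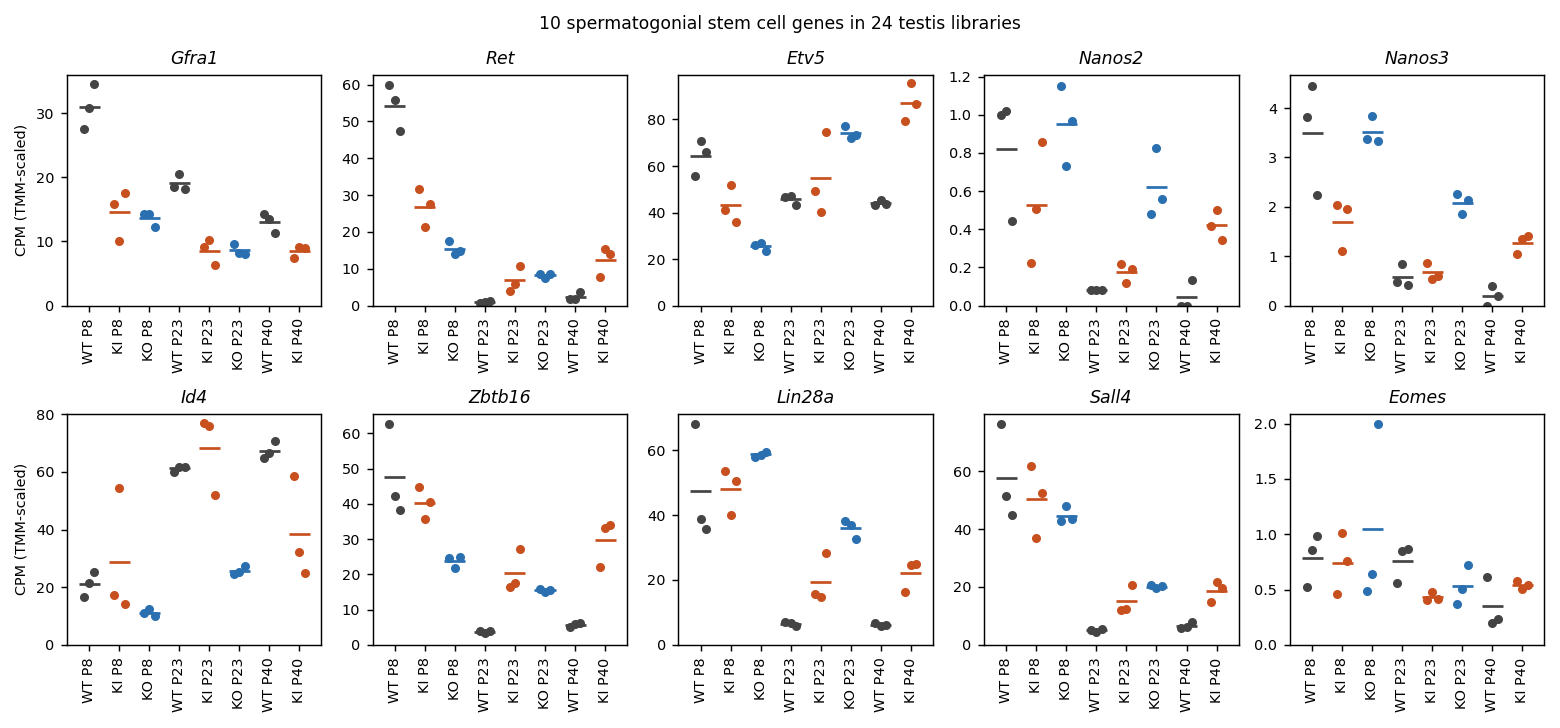
CPM of each member (y axis, TMM-scaled, linear from 0) in the 24 testis libraries by genotype and age (x axis); points are replicates, lines are group means, and KO at P8 stands for the libraries labelled KO. Sall4, Lin28a, Zbtb16 and Ret were below 8 CPM in every WT library at P23 and P40 and higher in every mutant library of the same age, while Gfra1 was highest in WT at P8.

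At P8 the comparison asked whether the panel already differed in mutant testes. The receptor pair was lower in KI testes but missed the threshold. Gfra1 measured 27.5, 30.9 and 34.6 CPM in WT and 15.9, 10.1 and 17.5 CPM in KI, without overlap, and the difference was -1.03 ± 0.23 (adjusted p = 0.0179, edgeR quasi-likelihood, Benjamini-Hochberg). Ret measured 31.6, 21.3 and 27.6 CPM in KI, all below WT, with -0.95 ± 0.18 (adjusted p = 0.0101, edgeR quasi-likelihood).
Etv5 gave -0.52 ± 0.15 (adjusted p = 0.038, edgeR quasi-likelihood) and Nanos3 -0.97 ± 0.39 (adjusted p = 0.0948). The values were -0.56 for Nanos2, -0.18 for Zbtb16, -0.13 for Sall4, 0.08 for Lin28a and -0.03 for Eomes, none past the threshold. No member was called, beside 3.25% of genes called lower and 3.03% called higher. 4 members had an unadjusted p under 0.05, as had 48% of all genes, and DESeq2 called 1 member lower, beside 6.15% of genes. Id4 rested on 1 library: KI replicate 2 had 54.4 CPM against 17.4 and 14.3 CPM in the other two, and the log2 difference was 0.50 with it and -0.33 without it.

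Gdnf, the ligand made by Sertoli cells, was called lower in the same comparison, from 25, 32.3 and 23.2 CPM in WT to 12.4, 8.23 and 11.1 CPM in KI (-1.27). It was the only called gene of 13 tested GDNF ligands, co-receptors and RET adaptors. Of 10 niche factors 3 were called lower, Cxcl12 (-1.53), Igf1 (-1.47) and Gdnf, with a list median of -1.26 against 0.00371 for all genes. 4 of 9 spermatocyte genes were called higher, among them Hormad1 (4.22) and Sycp3 (3.56). Calls in this comparison depended on single libraries. Without WT replicate 2, 0% of all genes were called lower and 0% higher. Without WT replicate 3, or KI replicate 1 or 3, at most 0.0188% were called lower and 0.069% higher. Without WT replicate 1 or KI replicate 2, 2.87% to 3.09% were called lower and 2.7% to 2.74% higher. The summed spermatocyte level was 54.7 to 106 CPM in WT and 431 to 1792 CPM in KI; its part in the member values was not tested.

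The P8 libraries labelled KO were lower in Ret, Gfra1 and Etv5. Ret measured 17.4, 14.1 and 14.9 CPM, below every WT library, and the difference was -1.79 ± 0.12 (adjusted p = 4.13e-05, edgeR quasi-likelihood). Gfra1 measured 14.3, 14.3 and 12.2 CPM (-1.17 ± 0.12, adjusted p = 0.000197, edgeR quasi-likelihood). Etv5 measured 26, 26.8 and 23.5 CPM against 55.9, 70.6 and 66.2 CPM in WT (-1.31 ± 0.10).
These 3 members were called lower and none higher, beside 8.37% and 5.44% of all genes. Zbtb16 (-0.98 ± 0.18, adjusted p = 0.00338) and Id4 (-0.89 ± 0.17, adjusted p = 0.00372, edgeR quasi-likelihood) passed the p but not the fold limit, and Id4 was at 0.40 with limma on log2(FPKM + 0.1), the opposite sign. Lin28a (0.33), Sall4 (-0.34), Nanos2 (0.24), Nanos3 (0.03) and Eomes (0.42) did not pass. Gdnf was called lower here too (-1.48), and Egr3 (-3.22) and Egr2 (-1.54), early growth response factors of the GDNF-induced list, were among 4 genes called lower and 3 called higher of 24. In the same comparison 5 of 9 spermatocyte genes were called higher (602 to 615 summed CPM against 54.7 to 106 in WT), 5 of 11 differentiating spermatogonia genes higher and 1 lower, 5 of 16 Sertoli genes lower and 4 higher, 3 of 8 Leydig cell genes lower and 1 higher, and 3 of 5 endothelial genes lower; their part in the member values was not tested. Set directly against each other, KI and the P8 libraries labelled KO differed in no member by the call, beside 1.16% and 2.76% of genes. An unadjusted p under 0.05 was found for 5 members, as for 44.6% of genes. DESeq2 called 1 member lower and 1 higher, beside 1.39% and 3.48% of genes. Etv5 and Zbtb16 passed the p but not the fold: Etv5 (0.78 ± 0.14, adjusted p = 0.00688) and Zbtb16 (0.78 ± 0.11, adjusted p = 0.00326, edgeR quasi-likelihood). The others were at 1.37 (Id4), 0.82 (Ret), 0.20 (Sall4), 0.12 (Gfra1), -0.27 (Lin28a), -0.47 (Eomes), -0.82 (Nanos2) and -1.02 (Nanos3), none past the threshold.

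**Figure D2:**
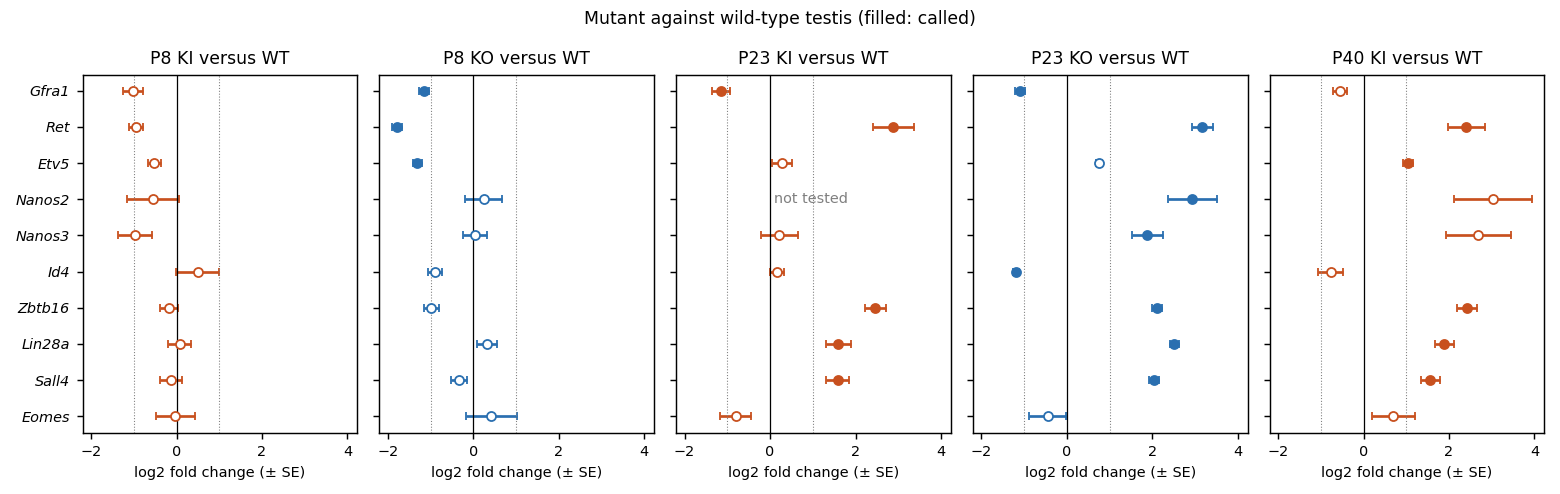
Log2 fold change (x axis, bars are SE) of each member (y axis) in mutant against WT testis of the same age, n = 3 per group; filled points were called, dotted lines mark 2-fold, and KO at P8 stands for the libraries labelled KO. Gfra1 lies left of 0 in every panel, while Ret, Zbtb16, Lin28a and Sall4 lie right of 0 at P23 and P40 and were called higher there; P23 and P40 values depend on the library scaling described in the text.

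At P23, KO and WT testes lay in the same table and replicated closely. Lin28a measured 6.97, 6.61 and 5.95 CPM in WT and 38.2, 37.1 and 32.7 CPM in KO (2.52 ± 0.11, adjusted p = 5.88e-09, edgeR quasi-likelihood, Benjamini-Hochberg). Ret measured 0.56, 1.09 and 1.16 CPM in WT and 8.51, 7.52 and 8.49 CPM in KO (3.17 ± 0.25). Sall4 measured 5.28, 4.38 and 5.54 CPM in WT and 20.7, 19.5 and 20.2 CPM in KO (2.04 ± 0.12).
None of these groups overlapped. Zbtb16 (2.11 ± 0.13), Nanos3 (1.89 ± 0.36) and Nanos2 (2.93 ± 0.58) were also called higher; Nanos2 rested on 2, 2 and 2 counts in WT and 18, 36 and 23 in KO. Gfra1 took the other direction, with 18.5, 20.5 and 18.2 CPM in WT and 9.6, 8.24 and 8.01 CPM in KO (-1.09 ± 0.12, adjusted p = 9.78e-06, edgeR quasi-likelihood). Id4 was lower as well, at 59.9, 61.9 and 61.9 CPM in WT and 24.6, 25.4 and 27.3 CPM in KO (-1.19 ± 0.06).
Etv5 was higher by less than 2-fold (0.76 ± 0.06) and Eomes did not pass (-0.45 ± 0.43). 6 members were called higher and 2 lower, beside 31.1% and 33.4% of all genes, so that most of the transcriptome was called as well. The member median was 1.96, against 0.06 for all genes.

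Marker lists of other testis cell types moved with the result. The summed level of 16 Sertoli genes was 3206 to 3301 CPM in WT P23 and 14059 to 14341 CPM in KO, and 15 of 15 tested were called higher. All 9 spermatocyte, 8 round spermatid and 7 elongating spermatid genes were called lower, the last from 18441 to 20428 CPM down to 3.6 to 5.36 CPM. All 9 macrophage genes were called higher.
When libraries were scaled on the Sertoli list instead, the median of all genes moved to -2.49. No member was called higher and 4 were called lower, beside 0.717% and 76.5% of all genes. Sall4 was then at -0.50, Zbtb16 at -0.44, Lin28a at -0.04, Nanos3 at -0.66 and Etv5 at -1.80, while Ret was at 0.64 and Nanos2 at 0.44, neither called. Gfra1 (-3.65), Id4 (-3.74), Etv5 and Eomes (-2.97) were the 4 called lower. A scaling of this kind shifts all genes of a library alike, and Gfra1, Id4 and Eomes lay below the shifted median while the others lay above it. Scaling by library size alone moved the median to 0.69 and ended the lower calls of Gfra1 (-0.46) and Id4 (-0.56).

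Of 13 tested GDNF ligands, co-receptors and RET adaptors 7 were called higher and 4 lower in KO P23 testes, beside 31.1% and 33.4% of all genes. Gfra2, the neurturin co-receptor, was at -4.75, Gfra4 at -3.54, Artn, the ligand artemin, at -3.37 and Gdnf at 2.26. Gdnf itself went from 1.32, 1.58 and 1.16 CPM to 6.51, 5.94 and 6.31 CPM.
Among 24 GDNF-induced and other undifferentiated spermatogonia genes 15 were called higher and 2 lower, with Egr3 at -3.85, Egr2 at 3.66, Pax7 at 2.98 and Tspan8 at 2.82. Of 10 niche factors 7 were called higher and none lower, led by Kitl (2.99), Cxcl12 (2.56), Csf1 (2.53) and Wnt6 (2.48). Of 11 differentiating spermatogonia genes 2 were called higher and 3 lower, with Dmrtb1 at -5.53, Meioc at -3.88, Ccnd2 at 2.49 and Sohlh1 at 1.91.

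KI testes at P23 were more variable than KO testes. Zbtb16 measured 16.5, 17.5 and 27.2 CPM against 3.88, 3.36 and 3.89 CPM in WT (2.47 ± 0.25, adjusted p = 0.00116, edgeR quasi-likelihood). Ret measured 4.05, 5.87 and 10.8 CPM (2.89 ± 0.49), Lin28a 15.6, 14.7 and 28.2 CPM (1.59 ± 0.29) and Sall4 12.1, 12.4 and 20.6 CPM (1.58 ± 0.27). KI replicate 3 was the highest library for each of these 4 genes and the lowest for Gfra1, which measured 9.09, 10.3 and 6.34 CPM (-1.15 ± 0.21, adjusted p = 0.00621, edgeR quasi-likelihood).
4 members were called higher and 1 lower, beside 8.81% and 11.8% of all genes. With WT replicate 1, 2 or 3 left out none of the 5 was called, beside 0.534% to 0.612% of genes higher and 1.67% to 1.86% lower. Without KI replicate 1 Zbtb16 alone was called, beside 1.89% of genes higher and 2.73% lower. Without KI replicate 3 the 4 higher calls stood but Gfra1 did not, beside 8.39% of genes higher and 15.8% lower. The differences themselves ranged over these 6 fits from 2.19 to 2.60 for Zbtb16, 2.40 to 3.16 for Ret, 1.22 to 1.74 for Lin28a, 1.27 to 1.72 for Sall4 and -1.32 to -0.98 for Gfra1. With Sertoli list scaling no member was called, beside 0.385% of genes higher and 5.76% lower. In the same comparison 7 of 8 round spermatid and 5 of 7 elongating spermatid genes were called lower, and 5 of 16 Sertoli and 3 of 6 peritubular myoid genes higher; their part in the member values was not tested. Nanos2 had too few counts to be tested, and Id4 (0.16), Nanos3 (0.21), Etv5 (0.27) and Eomes (-0.80) did not pass. Against KO at P23, Id4 was higher in KI (1.41 ± 0.18) and Nanos3 lower (-1.63 ± 0.34), beside 25.2% and 13% of all genes. The call of Nanos3 ended in 5 of the 6 fits that left out 1 library, all but the one without KI replicate 3, with differences of -1.88 to -1.49 in those 5 and 4.35% to 7.69% of genes called lower. The other members were not called and lay between -1.80 (Nanos2) and 0.40 (Zbtb16); for Id4 the change in gene model between tables applies, and the call ended with limma on FPKM.

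At P40, KI and WT testes lay in the same table. Zbtb16 measured 5.12, 6.03 and 6.17 CPM in WT and 22.2, 33.1 and 33.9 CPM in KI (2.42 ± 0.23, adjusted p = 0.000379, edgeR quasi-likelihood, Benjamini-Hochberg). Ret measured 7.76, 15.3 and 14 CPM in KI, above every WT library (2.41 ± 0.44). Lin28a measured 6.78, 5.71 and 6.03 CPM in WT and 16.4, 24.8 and 24.9 CPM in KI (1.89 ± 0.22).
Sall4 (1.56 ± 0.23) and Etv5 (1.04 ± 0.12) completed the 5 members called higher, beside 25.6% of all genes; none was called lower, beside 22.1%. Etv5 measured 43.2, 45.3 and 43.6 CPM in WT and 79.5, 95.7 and 86.5 CPM in KI. KI replicate 1 was the lowest KI library for each of the 5 members called higher. The RNA-binding pair was near the detection limit: Nanos2 held 0, 0 and 4 counts in WT and 16, 20 and 14 in KI (3.02 ± 0.92, adjusted p = 0.0228, edgeR quasi-likelihood), and Nanos3 0, 10 and 6 counts in WT and 40, 54 and 58 in KI (2.69 ± 0.77, adjusted p = 0.0184). Their groups did not overlap, but neither passed. Without WT replicate 3, Nanos2 passed and 6 members were called higher, beside 24.8% of all genes. The call of Ret ended without WT replicate 1 (2.23) or 2 (2.22) or KI replicate 3 (2.30), and that of Etv5 without KI replicate 2 (0.96).
Gfra1 remained on the lower side, with 14.2, 13.4 and 11.3 CPM in WT and 7.37, 9.17 and 8.99 CPM in KI (-0.56 ± 0.17, adjusted p = 0.0231, edgeR quasi-likelihood), but it was at 0.06 when libraries were scaled by library size alone. Id4 measured 58.8, 32.1 and 24.9 CPM in KI against 64.9 to 70.8 CPM in WT (-0.77 ± 0.30, adjusted p = 0.0502); without KI replicate 1, whose summed spermatocyte level of 2610 CPM was the highest of the KI P40 libraries, it was called lower (-1.17). Eomes did not pass (0.70 ± 0.50).

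Sertoli genes were high here too, at 2518 to 2819 summed CPM in WT and 7860 to 11066 in KI, with 16 of 16 called higher, and elongating spermatid genes were at 11255 to 14128 CPM in WT and 5.84 to 50 CPM in KI. With Sertoli list scaling the median of all genes moved to -2.10 and no member was called higher, beside 0.168% of all genes: Etv5 was at -1.19, Sall4 at -0.67, Lin28a at -0.36, Zbtb16 at 0.17 and Ret at 0.16. Gfra1 (-2.79), Id4 (-2.87) and Etv5 were then called lower, beside 70.7% of all genes. Of 13 tested GDNF ligands, co-receptors and RET adaptors 6 were called higher and 3 lower, beside the 25.6% and 22.1% of all genes given above, with Gfra2 at -4.17, Artn at -2.64, Gdnf at 2.23 and Ncam1 at -2.07. Of the 24 GDNF-induced and other undifferentiated genes 12 were called higher and 1 lower, with Pax7 at 4.06, Egr3 at -2.26, Upp1 at 2.25 and Neurog3 at 2.02.

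**Figure D3:**
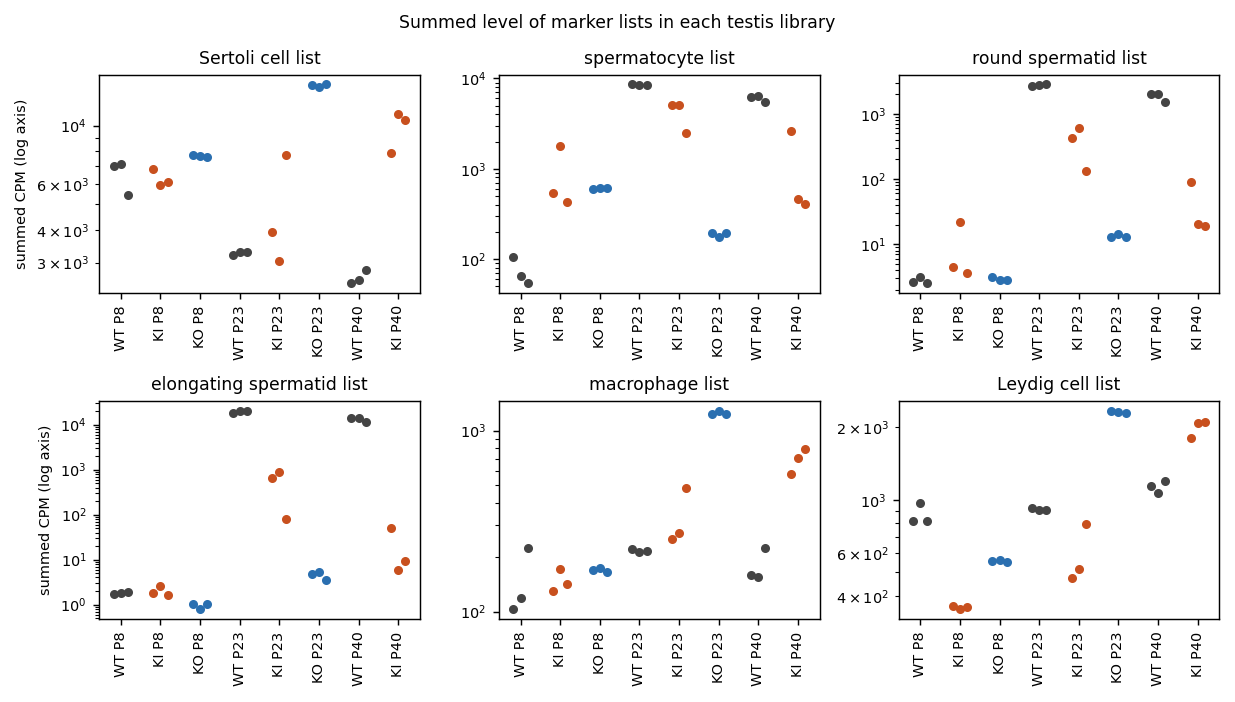
Summed CPM of 6 marker lists (y axis, log scale) in each testis library by genotype and age (x axis); points are replicates, and KO P8 stands for the libraries labelled KO. Spermatid lists were lower and Sertoli and macrophage lists higher in KO P23 and KI P40 libraries than in WT libraries of the same age, and KI P23 replicate 3 stands apart from the other two.

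**Figure D4:**
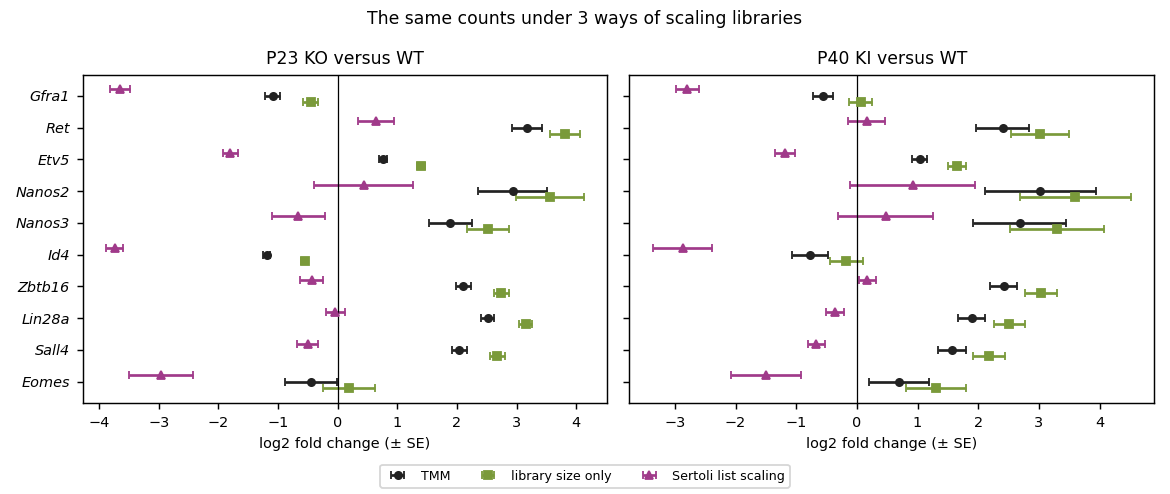
Log2 fold change (x axis, bars are SE) of each member (y axis) in KO P23 and KI P40 against WT under TMM, library size and Sertoli list scaling. Lin28a, Sall4 and Etv5 are right of 0 with TMM and left of 0 with Sertoli list scaling in both panels, while Gfra1 lies left of 0 with both, and at 0.06 with library size scaling at P40; Sertoli list scaling moved the median of all genes to -2.49 and -2.10.

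The KI effect was then compared between ages within 1 table, as the effect at P40 minus the effect at P8. Ret (3.28 ± 0.50), Nanos3 (3.58 ± 0.93), Zbtb16 (2.52 ± 0.34), Lin28a (1.74 ± 0.39), Sall4 (1.61 ± 0.39) and Etv5 (1.48 ± 0.20) were called higher, beside 23.2% of all genes, and none lower, beside 22.5%. The call of Nanos3 ended in 8 of the 12 fits that left out 1 library (3.34 to 3.73 in those 8), and that of Sall4 without KI P40 replicate 2 (1.48) or 3 (1.55). Nanos2 (3.54), Id4 (-1.34) and Eomes (0.64) were not called. For Gfra1 the difference missed the threshold (0.39 ± 0.31, adjusted p = 0.295, edgeR quasi-likelihood). Along age in KI testes, Sall4 alone was called, lower at P23 than at P8 (-1.88 ± 0.30), beside 3.53% of genes called lower and 5.7% higher. Without KI P23 replicate 3 the number called lower was 4, beside 9.84% of genes. The call of Sall4 ended without KI P8 replicate 1 (-1.72) or 3 (-1.86) or KI P23 replicate 1 (-1.75) or 2 (-1.76). In those fits 0% of all genes were called lower and 0% higher. Between KI P23 and P40 edgeR called 0 members and 0 of 16328 genes, while 7615 genes, 3 of them members, had an unadjusted p under 0.05 and DESeq2 called 4.57% of genes lower, 1.57% higher and 0 members. From the P8 libraries labelled KO to KO P23 testes, a step in which the Insl3 level differed as well as the age, Etv5 (1.56 ± 0.06) and Id4 (1.23 ± 0.10) were called higher and Sall4 (-1.13 ± 0.07) lower, beside 12% and 11.7% of all genes.

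A looser rule, an adjusted p under 0.05 in edgeR's quasi-likelihood test with no minimum fold, was read beside its own background. At P8 it took 3 members as lower and 0 as higher in KI (18.7% and 17.3% of all genes), and 5 and 0 in the libraries labelled KO (28.4% and 26%). At P23 it took 1 and 4 in KI (24.7% and 26.1%), and 2 and 7 in KO (44% and 44.4%). At P40 it took 1 and 7 in KI (36.6% and 40.4%).
Between the mutants it took 1 member as lower and 3 as higher in KI at P8 (16.1% and 16.5%), and 3 and 1 at P23 (29.2% and 36.4%). Along age in WT it took 8 and 1 from P8 to P40 (40.6% and 41.7%), 8 and 1 from P8 to P23 (41.5% and 43.1%), and 1 and 2 from P23 to P40 (21.2% and 23%). In KI it took 6 and 0 from P8 to P23 (21.3% and 23.3%) and in KO 6 and 2 (36% and 35.7%). Against WT gubernaculum it took 0 and 8 (29.8% and 30.3%), and for the KI effect at P40 against P8 0 and 7 (33.4% and 33.5%).

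Ratios of counts within a library do not depend on how libraries are scaled. Gfra1 to Sall4 was 0.361 to 0.77 in WT P8, 3.28 to 4.68 in WT P23 and 1.44 to 2.46 in WT P40. It was 0.258 to 0.334 in KI P8, 0.282 to 0.335 in the P8 libraries labelled KO and 0.307 to 0.828 in KI P23. In KO P23 it was 0.397 to 0.463 and in KI P40 0.422 to 0.497. Every mutant library, the P8 libraries labelled KO included, was thus below every WT library of its age. For KI P23 and the P8 libraries labelled KO, the WT libraries of that age stood in the other table.
Ret to Gfra1 took the other course after P8, from 0.0302 to 0.0636 in WT P23 to 0.886 to 1.06 in KO P23, and from 0.123 to 0.328 in WT P40 to 1.05 to 1.67 in KI P40. Zbtb16 to Sall4 was 0.701 to 0.769 in WT P23 and 0.758 to 0.775 in KO P23, which overlap, but 1.32 to 1.41 in KI P23. At P40 it was 0.783 to 0.99 in WT and 1.5 to 1.72 in KI. These ratios are descriptions, and for Ret the gene model differed between tables.

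**Figure D5:**
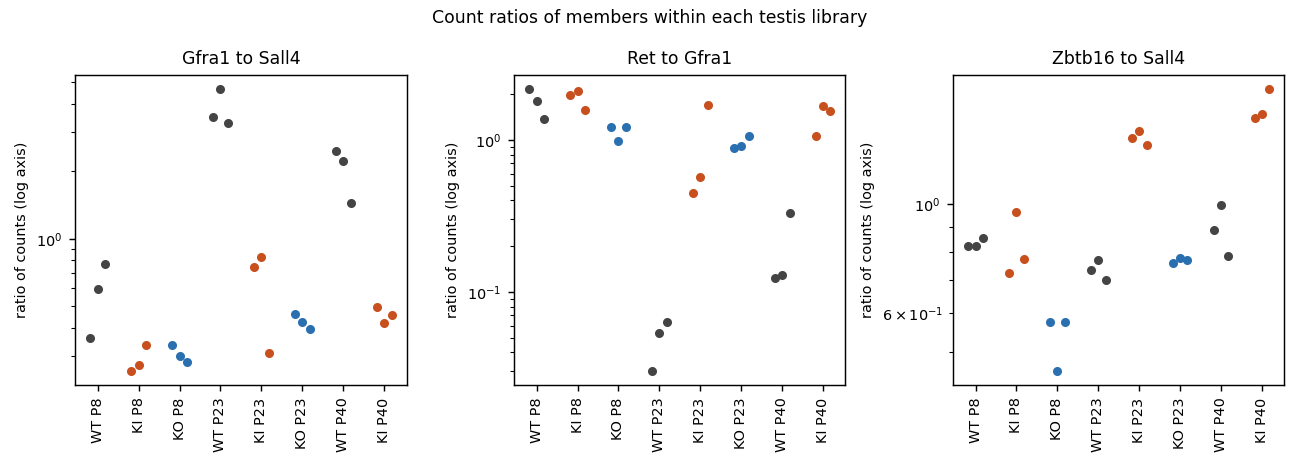
Ratio of the counts of 2 members within each testis library (y axis, log scale) by genotype and age (x axis); points are replicates, and KO P8 stands for the libraries labelled KO. Gfra1 to Sall4 was lower in every mutant library than in WT libraries of its age, and Ret to Gfra1 was higher in mutant libraries at P23 and P40.

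By profile over the 8 group means, Sall4 lay nearest to Pramef12 (root mean square log2 difference 0.13), Trim71 (0.14) and Mcm2 (0.15) among 14535 genes, Lin28a to Prr23a3 (0.16), Tnnt1 (0.17) and Prtg (0.18), and Zbtb16 to St3gal2 (0.19), Sox3 (0.22) and Sox12 (0.25). Ret lay nearest to Gli1 (0.22), Lrfn3 (0.26) and Piezo1 (0.30), and Gfra1 to Prokr1 (0.21), Cavin4 (0.23) and Bend5 (0.24). Among members the nearest pairs were Nanos2 with Nanos3 (0.28) and Lin28a with Sall4 (0.33), and the farthest pair was Ret with Id4 (2.39). The 8 groups span both tables, and the gene models of Ret and Id4 differed between them, which limits the profiles of these genes. Gfra1 lay nearest to Eomes among members (0.52), and Id4 nearest to Etv5 (0.86). From Sall4 the difference was 0.33 to Lin28a, 0.47 to Zbtb16, 0.50 to Nanos2, 0.60 to Nanos3 and 0.62 to Ret. To Eomes it was 1.04, to Gfra1 1.23, to Etv5 1.37 and to Id4 1.99. Genes on the opposite strand overlap Gfra1 (Gm16277), Id4 (A330033J07Rik and Gm49291), Nanos2 (Gm45058), Lin28a (Gm13061), Sall4 (Gm14261) and Eomes (Gm33460). Mir181c and Mir181d overlap Nanos3 on the same strand. The strand setting of the counting is not given in the sources used here.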

How the data were processed

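Whole-testis and gubernaculum RNA was sequenced as described by the submitters. Per the submitters' processing notes HISAT2 and GRCm38 were used; the counting program, annotation and strand setting are not given in the sources used here. The authors deposited raw read counts per gene and, in parallel tables, FPKM values (scaled to gene length and library size). The tables were joined on Ensembl identifiers; shared genes held 94.2% to 97.9% of each testis library's counts. Genes were kept by filterByExpr (minimum count 10, minimum total 15), and the libraries of each comparison were scaled by TMM and tested with edgeR 4.0.16 (glmQLFit, glmQLFTest) in R 4.3.3, with Benjamini-Hochberg adjustment. The SE printed was the absolute log2 fold change divided by the square root of that test's quasi-likelihood F statistic. FPKM was used with limma 3.58.1 on log2(FPKM + 1) and log2(FPKM + 0.1), and DESeq2 1.42.0 on counts, as alternatives. Other alternatives were library size scaling, Sertoli list scaling, no filter, 1 fit over 24 libraries, a replicate block, a looser threshold and leaving out each replicate.

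The members and gene lists were chosen with earlier results of these data known. The rule for named genes took all 10 members, Insl3, up to 4 called genes of each related list by size of change, and the 3 genes nearest in profile to a member; the related lists are given for some comparisons only. Scripts were tested on simulated counts. Over 24 pairs of testis replicates the chi-square per degree of freedom was 4.17 to 312, so no pair agreed within sampling noise. Replicates are labelled biological; that they are separate animals is not stated, so p-values measure the spread between these samples. No column of the tables was without a sample.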

Additional observations from a re-analysis of the deposited data

Results flagged for a closer look

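The KI effect differed between P8 and P40 by a test of the difference itself (edgeR quasi-likelihood interaction, adjusted p under the threshold) in 6 members: Ret (3.28), Nanos3 (3.58), Etv5 (1.48), Zbtb16 (2.52), Lin28a (1.74) and Sall4 (1.61), all as log2 effect at P40 minus log2 effect at P8. Of all genes 23.2% were called higher in the same test. Between 4 and 6 members were called when 1 library was left out, beside 20.1% to 24.6% of all genes called higher. Over the same libraries the summed Sertoli list was 5447 to 7120 CPM in WT and 5924 to 6839 CPM in KI at P8, and 2518 to 2819 CPM in WT and 7860 to 11066 CPM in KI at P40; its part in these differences was not tested.

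Id4 carried a signal in gubernaculum libraries that the testis comparisons did not use. At P8 it measured 10.9, 10.7 and 9.68 CPM (library size scaling) in WT gubernaculum and 274, 205 and 219 CPM in KI gubernaculum, 22.3 times the WT mean. The P8 gubernaculum libraries labelled KO measured 67.4, 75 and 71.4 CPM, 6.84 times the WT mean, and lie in the other table, whose Id4 gene model differs. No other member had every mutant gubernaculum library above every WT library of the age with at least 2 times its mean and more than 10 counts in each mutant library. Ret came just short of that fold in KI P8 gubernaculum. It measured 15.5, 15.8 and 19.1 CPM there, above every WT library (8.8, 10.4 and 6.06 CPM).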

How the results depend on the processing

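Of 2220 member values under alternatives, 1901 kept their direction and their side of the threshold, 109 were no longer called, 107 became called and 103 changed sign; 91 of the sign changes involved no called value, and the other 12 arose under Sertoli list scaling. The cause was not tested for any change below unless the text says so. Numbers of members called follow where they differed from the number in the report by more than 1.5 times, and log2 differences (in brackets) where the sign changed; smaller moves were of 1 or 2 members and are not listed in full. P8 KO stands for the P8 libraries labelled KO. A percentage in brackets is the share of all genes called in that fit. For the rule of an adjusted p under 0.05 those shares are given above.

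Sertoli list scaling set each library by the median, over the genes of that list, of the ratio to the gene's geometric mean. Values of the other genes are therefore relative to the list. The numbers called became 5 lower (10.1%) for P8 KO versus WT, and 0 lower (5.76%) and 0 higher (0.385%) for P23 KI versus WT. For P23 KO versus WT they were 4 lower (76.5%) and 0 higher (0.717%). For P23 KI versus KO they were 0 lower (0.702%) and 2 higher (46.1%). For P40 KI versus WT they were 3 lower (70.7%) and 0 higher (0.168%). For WT P40 versus P8 they were 4 lower (5.01%) and 2 higher (63.4%), and for WT P23 versus P8 3 higher (62.6%). They were 0 lower (0%) for KI P23 versus P8, and 6 lower (26.1%) and 1 higher (6.61%) for KO P23 versus P8. In P8 KI versus WT, Sall4 (0.038) and Eomes (0.14) changed sign. In P8 KO versus WT, Nanos3 (-0.080) changed sign. In P23 KI versus WT, Id4 (-0.77), Nanos3 (-0.81) and Etv5 (-0.88) changed sign. In P23 KO versus WT, Nanos3 (-0.66), Etv5 (-1.80), Zbtb16 (-0.44), Lin28a (-0.038) and Sall4 (-0.50) changed sign. In P23 KI versus KO, Gfra1 (1.55), Ret (1.06), Etv5 (0.90), Lin28a (0.44), Sall4 (0.93) and Eomes (1.15) changed sign. In P40 KI versus WT, Etv5 (-1.19), Lin28a (-0.36), Sall4 (-0.67) and Eomes (-1.50) changed sign. In WT P40 versus P8, Gfra1 (0.61), Etv5 (1.32) and Eomes (0.67) changed sign. In WT P23 versus P8, Gfra1 (1.10), Etv5 (1.32) and Eomes (1.73) changed sign. In KI P23 versus P8, Gfra1 (0.0020) changed sign. In KI P40 versus P23, Ret (-0.13), Nanos3 (-0.16), Etv5 (-0.29), Zbtb16 (-0.46), Lin28a (-0.79), Sall4 (-0.67) and Eomes (-0.74) changed sign.

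With library size only, the numbers called became 0 lower (8.73%) for P23 KI versus WT and 0 lower (27.1%) for P23 KO versus WT. They became 0 higher (24.9%) for WT P40 versus P8 and 0 higher (25.1%) for WT P23 versus P8. For KO P23 versus P8 they became 2 lower (16.8%) and 1 higher (8.85%). In P8 KI versus WT, Eomes (0.080) changed sign. In P23 KO versus WT, Eomes (0.19) changed sign. In P40 KI versus WT, Gfra1 (0.065) changed sign. In WT P40 versus P23, Etv5 (0.012) changed sign. In KI P23 versus P8, Etv5 (-0.089) changed sign. In KI P40 versus P23, Gfra1 (0.26) changed sign. In WT P8 testis versus gubernaculum, Etv5 (0.23) changed sign.

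With limma on log2(FPKM + 0.1), the numbers called became 1 higher (2.44%) for P8 KI versus KO and 0 lower (10.5%) for P23 KI versus WT. They became 0 lower (27.1%) for P23 KO versus WT, and 2 lower (17.4%) and 0 higher (22.7%) for P23 KI versus KO. For WT P40 versus P8 they became 0 higher (25.4%), and for KI P23 versus P8 4 lower (9.99%). For KO P23 versus P8 they became 3 lower (17.2%) and 1 higher (8.53%). In P8 KI versus WT, Sall4 (0.00076) and Eomes (0.039) changed sign. In P8 KO versus WT, Id4 (0.40) changed sign. In P8 KI versus KO, Id4 (-0.039) changed sign. In P23 KI versus WT, Id4 (-0.53) changed sign. In P23 KO versus WT, Eomes (0.13) changed sign. In P40 KI versus WT, Gfra1 (0.10) changed sign. In WT P40 versus P23, Id4 (-0.94), Etv5 (0.079) and Lin28a (0.081) changed sign. In KI P23 versus P8, Etv5 (-0.18) changed sign. In KI P40 versus P23, Gfra1 (0.30) changed sign. In WT P8 testis versus gubernaculum, Etv5 (0.26) changed sign.

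With limma on log2(FPKM + 1), which shrinks low genes, the numbers called became 1 higher (1.45%) for P8 KI versus KO. They became 0 lower (8.84%) for P23 KI versus WT and 0 lower (21.9%) for P23 KO versus WT. For P23 KI versus KO they became 0 higher (18.5%), and for WT P40 versus P8 0 higher (20.8%). For KI P23 versus P8 they became 3 lower (7.65%), and for KO P23 versus P8 1 higher (5.35%). In P8 KI versus WT, Sall4 (0.00091) and Eomes (0.013) changed sign. In P8 KO versus WT, Id4 (0.35) changed sign. In P8 KI versus KO, Id4 (-0.017) changed sign. In P23 KI versus WT, Id4 (-0.51) changed sign. In P23 KO versus WT, Eomes (0.030) changed sign. In P40 KI versus WT, Gfra1 (0.074) changed sign. In WT P40 versus P23, Id4 (-0.89), Etv5 (0.070) and Lin28a (0.047) changed sign. In KI P23 versus P8, Etv5 (-0.16) changed sign. In KI P40 versus P23, Gfra1 (0.20) changed sign. In WT P8 testis versus gubernaculum, Etv5 (0.25) changed sign.

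With an adjusted p under 0.05 and no minimum fold, the numbers called became 3 lower for P8 KI versus WT, 5 lower for P8 KO versus WT, 1 lower and 3 higher for P8 KI versus KO, 3 lower for P23 KI versus KO, 1 lower for P40 KI versus WT, 1 lower and 2 higher for WT P40 versus P23, 6 lower for KI P23 versus P8 and 6 lower for KO P23 versus P8. With DESeq2 they became 1 lower (6.15%) for P8 KI versus WT, 1 lower (1.39%) and 1 higher (3.48%) for P8 KI versus KO and 3 lower (7.49%) for KI P23 versus P8. In P23 KI versus KO, Gfra1 (0.052) changed sign. In WT P23 versus P8, Eomes (0.049) changed sign. With 24 testis libraries in 1 fit the numbers called became 1 lower (6.74%) for P8 KI versus WT. They became 3 lower (8.35%) and 1 higher (21.3%) for KI P23 versus P8 and 1 higher (8.64%) for KO P23 versus P8. Without the filter on low counts, Gfra1 in KI P40 versus P23 (0.011) changed sign.

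Replicate numbers did not pair the samples, since no comparison had a correlation of deviations over 0.1 in every pair. With a replicate block the numbers called became 0 lower (6.55%) and 2 higher (3.08%) for P23 KI versus WT. They became 0 lower (12.2%) for P23 KI versus KO and 3 lower (5.22%) for KI P23 versus P8. They went to 4 higher (12.1%) for testis versus gubernaculum and 5 higher (29.7%) for P23 KO versus WT. For WT P40 versus P8 they went to 6 lower (26.3%), and for the KI effect at P40 versus P8 to 5 higher (23.1%). Gfra1 in KI P40 versus P23 (0.018) changed sign.

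Leaving out 1 library gave 3 to 4 lower (6.34% to 10.4%) for P8 KO versus WT. For P23 KI versus WT it gave 0 to 1 lower (1.67% to 15.8%) and 0 to 4 higher (0.534% to 10.3%). For P23 KI versus KO it gave 0 to 2 lower (4.35% to 21.3%). For P40 KI versus WT it gave 0 to 1 lower (13.3% to 31%) and 4 to 6 higher (19.5% to 28%). For WT P40 versus P8 it gave 6 to 7 lower (24.7% to 27.9%). For KI P23 versus P8 it gave 0 to 4 lower (0% to 9.84%) and 0 to 1 higher (0% to 17%). For WT P8 testis versus gubernaculum it gave 4 to 6 higher (11.3% to 13.9%). For KI effect at P40 versus P8 it gave 4 to 6 higher (20.1% to 24.6%). The sign changed with 1 library left out for Id4 in P8 KI versus WT (-0.33 to 0.81), Zbtb16 in P8 KI versus WT (-0.30 to 0.027), Lin28a in P8 KI versus WT (-0.073 to 0.39), Sall4 in P8 KI versus WT (-0.30 to 0.089), Eomes in P8 KI versus WT (-0.29 to 0.22), Nanos2 in P8 KO versus WT (-0.057 to 0.43), Nanos3 in P8 KO versus WT (-0.21 to 0.23), Eomes in P8 KO versus WT (-0.45 to 0.77), Gfra1 in P8 KI versus KO (-0.047 to 0.33), Eomes in P8 KI versus KO (-0.79 to 0.43), Nanos3 in P23 KI versus WT (-0.018 to 0.59), Etv5 in P23 KI versus WT (-0.029 to 0.43), Gfra1 in P23 KI versus KO (-0.16 to 0.17), Ret in P23 KI versus KO (-0.72 to 0.015), Eomes in WT P23 versus P8 (-0.31 to 0.097), Etv5 in WT P40 versus P23 (-0.041 to 0.023), Lin28a in WT P40 versus P23 (-0.092 to 0.023) and Gfra1 in KI P40 versus P23 (-0.18 to 0.13), none of them called. With 2 libraries in an arm the spread is estimated from fewer samples. Members under about 1 CPM (Nanos2, Eomes) rest on few counts, which limits what these libraries can show for them. No fit of Sertoli list scaling was made for testis against gubernaculum or for the KI effect between ages.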
